A study of Mus musculus with 4 samples.

Results

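The genes described here encode or serve the major histocompatibility complex (MHC), and were followed in single sorted haematopoietic stem cells (HSC) of mouse bone marrow. They are 9 of the 24411 gene rows in the counts, chosen by name: B2m, H2-K1, H2-D1, Tap1 and Tapbp for class I, and Cd74, H2-Aa, H2-Ab1 and H2-Eb1 for class II. All 9 had counts in every library and all 9 passed the filter on low counts. The animals were Mat KO (2 libraries, 44 and 48 cells) or wild type, WT (2 libraries, 48 cells each), and the labels give neither the age, the sex and the strain nor the deleted sequence. The series title places the study in the imprinted Dlk1-Gtl2 locus, where Meg3 (Gtl2) is a noncoding RNA made from the maternal copy. Meg3 had 18.4 and 32.8 UMIs per 1000000 UMIs of the library (CPM) in Mat KO replicates 1 and 2, against 52.8 and 47.0 CPM in WT replicates 1 and 2, and it was not absent from the Mat KO libraries. Each count is a unique molecular identifier (UMI) that tags cDNA near the 3' end of an RNA, so levels did not scale with transcript length.

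MHC class I molecules are carried by nearly all nucleated cells and show peptides from inside the cell to CD8 T cells. A heavy chain such as H-2K or H-2D pairs with beta-2 microglobulin, and the peptide is brought in by the TAP transporter and loaded with the help of tapasin. MHC class II molecules present peptides from the outside to CD4 T cells and are mostly a property of B cells, dendritic cells and macrophages. Their alpha and beta chains assemble around the invariant chain, and the coactivator CIITA drives their transcription, as its relative NLRC5 does for class I.

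Promoter sequences are shown for 3 class I genes detected in every cell and for 2 class II genes, because known regulators of both classes act through short motifs near the start. A window of 250 bases before to 50 bases after the RefSeq start, on the GRCm38.p6 build, was searched for 7 of the 9 genes. H2-Ab1 had no window in the promoter source. Cd74 was left out of the search, so whether its promoter holds these motifs was not tested. Each is written 5' to 3' on the gene's own strand, and capitals mark the motifs searched on both strands. The motifs were CCAAT (the Y box core), AANNGAAA (an interferon regulatory factor site) and an X box (GCAAC, then any 3 bases, then TG). An NF-kappaB site was also searched, as the exact run in capitals in H2-K1 that starts with GGGGA. None of the matches shown overlaps another. The B2m window is chr2:122147437-122147736 on the plus strand, that of H2-K1 is chr17:34000298-34000597 on the minus strand, and that of H2-D1 is chr17:35262844-35263143 on the plus strand. The H2-Aa window is chr17:34287774-34288073 on the minus strand and that of H2-Eb1 is chr17:34305617-34305916 on the plus strand.
B2m: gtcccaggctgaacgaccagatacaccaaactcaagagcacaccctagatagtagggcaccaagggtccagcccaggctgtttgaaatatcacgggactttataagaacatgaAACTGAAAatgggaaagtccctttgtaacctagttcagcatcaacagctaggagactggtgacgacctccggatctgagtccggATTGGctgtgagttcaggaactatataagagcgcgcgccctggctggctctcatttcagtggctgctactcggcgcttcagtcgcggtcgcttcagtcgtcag
H2-K1: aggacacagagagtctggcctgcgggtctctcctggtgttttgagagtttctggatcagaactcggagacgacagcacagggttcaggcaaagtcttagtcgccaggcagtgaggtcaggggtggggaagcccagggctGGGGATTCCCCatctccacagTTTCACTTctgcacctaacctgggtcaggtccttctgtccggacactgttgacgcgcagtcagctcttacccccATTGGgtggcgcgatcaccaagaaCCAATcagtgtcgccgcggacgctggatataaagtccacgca
H2-D1: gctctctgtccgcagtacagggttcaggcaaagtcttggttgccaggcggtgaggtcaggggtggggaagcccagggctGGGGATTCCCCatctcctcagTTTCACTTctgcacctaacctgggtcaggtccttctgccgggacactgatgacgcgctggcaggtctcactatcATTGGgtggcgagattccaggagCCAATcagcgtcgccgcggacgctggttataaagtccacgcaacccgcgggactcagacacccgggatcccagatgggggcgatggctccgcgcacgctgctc
H2-Aa: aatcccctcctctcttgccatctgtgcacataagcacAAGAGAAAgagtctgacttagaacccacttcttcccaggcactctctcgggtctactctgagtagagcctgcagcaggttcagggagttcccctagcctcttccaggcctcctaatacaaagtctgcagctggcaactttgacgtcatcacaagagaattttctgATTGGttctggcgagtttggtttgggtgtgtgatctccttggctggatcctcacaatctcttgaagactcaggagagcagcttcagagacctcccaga
H2-Eb1: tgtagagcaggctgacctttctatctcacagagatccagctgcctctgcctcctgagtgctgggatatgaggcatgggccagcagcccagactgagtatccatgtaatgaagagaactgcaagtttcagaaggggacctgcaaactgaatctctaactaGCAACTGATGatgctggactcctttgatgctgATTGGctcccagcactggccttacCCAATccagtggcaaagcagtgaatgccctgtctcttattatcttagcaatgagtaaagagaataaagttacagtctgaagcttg
CCAAT or its complement ATTGG stood in all 7 windows, but it also stood in 37.41% of the 32851 mouse promoters in the table. The NF-kappaB letters were found in H2-K1 and H2-D1 and in 10 promoters in all, a share of 0.03044%. They are an exact run without free bases, defined here by its letters in H2-K1. The match there was therefore given, and the small share is no measure of enrichment. The interferon regulatory factor letters were found in B2m, H2-K1, H2-D1 and H2-Aa, beside 23.92% of all promoters. The X box letters were found only in H2-Eb1 among the 7 windows searched, 91 to 82 bases before the start, beside 2.734% of all promoters. In H2-Aa, GCAAC was followed by TTTGA and so fell outside this exact pattern. A window without a match may still hold a variant of the motif. A match describes letters in a window and says nothing of binding. In the GENCODE annotation of the same build, B2m lies on chromosome 2 (122147686 to 122153083). Of the 9 genes, 7 lie on chromosome 17 between 33915899 (Tapbp) and 35267499 (H2-D1). The RefSeq start behind the window lay 3579 bases from the GENCODE start for Tapbp and 364 bases for H2-D1. For the other windows it lay 0 to 3 bases away. The 2 annotations thus place the start of Tapbp differently, and its CCAAT matches hold for the RefSeq start only.

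The 188 kept cells held 1900319 and 1768647 UMIs in the Mat KO libraries, against 3183279 and 3253608 UMIs in the WT libraries. The median cell held 33612.5 and 27845 UMIs in the Mat KO libraries, against 53092.5 and 51437 in the WT libraries, so shares of cells are also given at an equal depth of 8877 UMIs. All 18 listed stem cell markers, such as Procr, Hlf and Mecom, had UMIs in every library. Mat KO replicate 1 stood apart: 22 of its 44 cells met the rule for granulocyte or monocyte markers, against 5 in Mat KO replicate 2 and 6 and 5 in WT replicates 1 and 2. These marker genes summed to 36768 and 5980 CPM in the Mat KO libraries, against 7305 and 3521 CPM in the WT libraries. They took 0.501% and 0.102% of the UMIs of the median cell in Mat KO, against 0.136% and 0.0934% in WT. The lowest cell of Mat KO replicate 1 had 0.0980%, so the level was raised across that library. The 0.5% limit of the rule fell near its median cell, so marker and lineage-low cells are not sharply separated there. B-lymphoid marker cells numbered 5 and 3 in Mat KO, against 5 and 1 in WT, and no cell met the rule for dendritic cells. Cells that met no such rule, called lineage-low here, numbered 19 and 40 in Mat KO, against 38 and 40 in WT. The same 48 barcodes were used in every library, and 44 of them were kept in all 4.

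B2m, the light chain shared by all class I molecules, was the most abundant of the 9 genes in every library. It had 3849 and 4023 CPM in the Mat KO libraries, against 4616 and 4683 CPM in the WT libraries. H2-K1, a classical heavy chain, had 1142 and 1390 CPM in the Mat KO libraries, against 1393 and 1335 CPM in the WT libraries. H2-D1, the other classical heavy chain measured, had 878 and 880 CPM in the Mat KO libraries, against 909 and 862 CPM in the WT libraries. Both Mat KO values lay below both WT values for B2m, and the values interleaved for the heavy chains. Heavy chain genes are close copies of each other, and the sources used here do not say how reads that match several of them were handled, so the split between H2-K1 and H2-D1 is uncertain.

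The genes of peptide supply were an order of magnitude lower. Tap1, a subunit of the peptide transporter, had 107 and 54.8 CPM in the Mat KO libraries, against 98.0 and 67.3 CPM in the WT libraries. Tapbp, which encodes tapasin, had 119 and 178 CPM in the Mat KO libraries, against 91.1 and 115 CPM in the WT libraries. The Tap1 values interleaved, while both Mat KO values of Tapbp lay above both WT values.

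The class II genes were lower still in 3 of the 4 libraries and nowhere reached the heavy chains. Cd74, the invariant chain, had 32.1 and 76.3 CPM in the Mat KO libraries, against 12.6 and 36.6 CPM in the WT libraries. H2-Aa, an alpha chain, had 35.8 and 73.5 CPM in the Mat KO libraries, against 20.1 and 27.05 CPM in the WT libraries. H2-Ab1, its beta chain partner, had 45.8 and 28.3 CPM in the Mat KO libraries, against 25.4 and 57.5 CPM in the WT libraries. H2-Eb1, a beta chain of the other class II molecule, was the lowest of the 9 in 3 libraries, with 8.95 and 38.4 CPM in the Mat KO libraries, against 10.7 and 11.7 CPM in the WT libraries. In Mat KO replicate 2 the lowest was H2-Ab1, and there Cd74 and H2-Aa lay above Tap1. Genes below H2-D1 changed places between libraries, which leaves Tap1 with Tapbp, and Cd74, H2-Aa and H2-Ab1 among themselves, without a set order. The same holds for H2-Ab1 with H2-Eb1, and for Tap1 with Cd74 and H2-Aa.

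**Figure D1:**
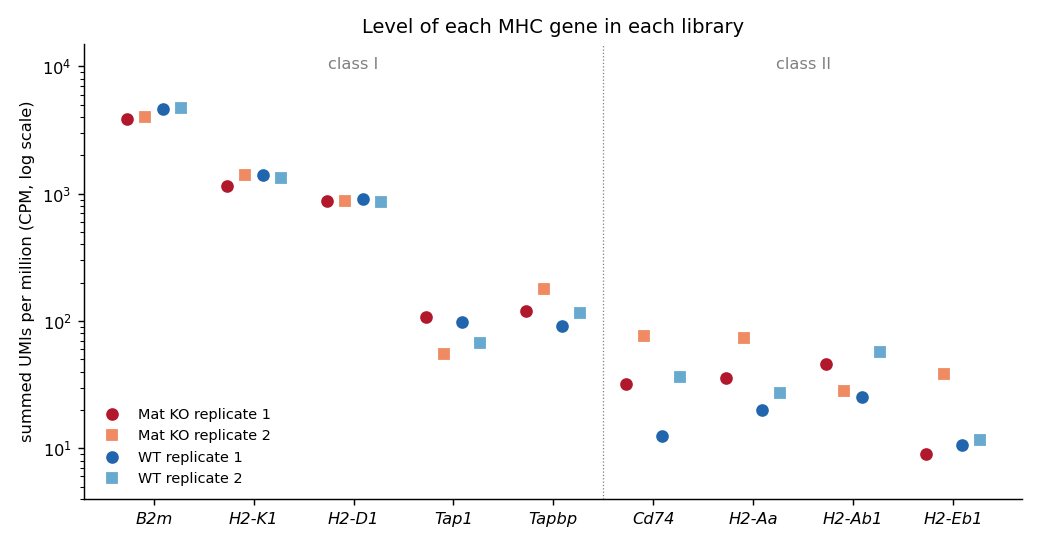
Level in CPM (log scale) of each MHC gene, 1 point per library, with Mat KO in red tones and WT in blue tones. B2m lies between 3849 and 4683 CPM, and the class II genes lie between 8.95 and 76.3 CPM.

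Class I was found in every cell, though not each of its genes. The genes were proposed for a contrast of uniform class I with class II in few cells. This contrast is therefore described and was not tested. B2m, H2-K1 and H2-D1 had UMIs in all 188 cells, and the lowest bound of the exact binomial 95% intervals of these shares was 92.0%, in Mat KO replicate 1. Intervals cover counting error only. These shares depend on level too: Hspa5, a listed gene of class I loading at 760 to 963 CPM, was also in 100% of cells in every library. Tap1 was found in 23 of 44 and 25 of 48 cells in Mat KO, against 25 and 22 of 48 cells in WT. Tapbp was found in 33 and 36 Mat KO cells, against 30 and 36 WT cells. At equal depth the expected share of cells with Tap1 was 40.3% and 30.5% in Mat KO, against 33.4% and 27.5% in WT, and these values overlapped. All cells held at least 3 of the 5 class I genes before depth was equalised.

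Class II was found in a minority of cells for every gene. Shares of cells depend on level, and other genes of low level were also found in few cells. Tapbpl, at 16.6 to 33.2 CPM over the libraries, was in 18.2% to 31.25% of cells. Rfxap, at 17.8 to 39.6 CPM, was in 16.7% to 25% of cells, and Tap2, at 34.2 to 58.2 CPM, in 36.4% to 54.2%. The class II shares were not compared with those of all genes of like level. Cd74 had UMIs in 11 and 14 Mat KO cells, against 8 and 11 WT cells. H2-Aa was found in 13 and 14 Mat KO cells, against 8 and 8 WT cells. H2-Ab1 was found in 11 and 7 Mat KO cells, against 12 and 18 WT cells. H2-Eb1 was found in 2 and 5 Mat KO cells, against 4 and 7 WT cells.

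At equal depth these shares were smaller. Cd74 was expected in 15.3% and 14.4% of the Mat KO cells, against 9.95% and 8.95% of the WT cells. H2-Aa was expected in 15.2% and 13.1% of the Mat KO cells, against 12.1% and 11.7% of the WT cells. The genotypes did not overlap for these genes or for Tapbp (51.8% and 55.2% in Mat KO, against 40.5% and 51.1% in WT), and 14.3% of all genes with a mean of at least 0.1 UMIs at equal depth had such higher shares in Mat KO. H2-D1 did not overlap in the other direction, at 96.9% and 98.8% of cells in Mat KO, against 98.9% and 99.2% of cells in WT, as did 25.2% of those genes. For each of these 4 the exact two-sided permutation test gave p = 0.3333, the smallest p that 2 libraries against 2 allow. H2-Ab1 was expected in 16.2% and 8.99% of the Mat KO cells, against 12.1% and 19.8% of the WT cells. H2-Eb1 was expected in 2.79% and 8.14% of the Mat KO cells, against 5.65% and 10.6% of the WT cells. Both overlapped, with lower means in Mat KO. Over all kept cells at their own, unequal depth, H2-Aa at 3 or more UMIs went the other way, with 4.55% and 2.08% of the Mat KO cells, against 10.4% and 12.5% of the WT cells. Tap1 (29.5% and 27.1% in Mat KO, against 41.7% and 39.6% in WT) and H2-Ab1 (11.4% and 8.33% in Mat KO, against 12.5% and 18.8% in WT) were also lower without overlap at that count, as were 40.5% of all genes tested, while 4.83% were higher without overlap.

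**Figure D2:**
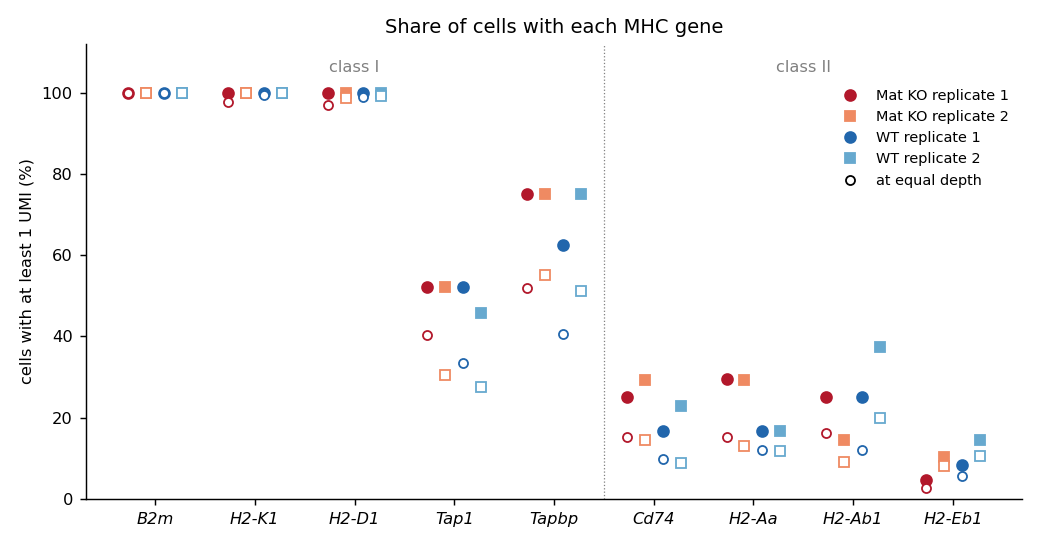
Share of cells with at least 1 UMI of each gene, 1 point per library, filled for all kept cells and open for the expected share at 8877 UMIs per cell. B2m, H2-K1 and H2-D1 sit at 100% in all kept cells, while no class II gene exceeds 37.5%.

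Most class II detection was a single gene at a low count. Of the 188 cells, 85 had no class II UMI, 72 had 1 of the 4 genes, 17 had 2, 9 had 3 and 5 had all 4. Of the 103 cells with any, 55 held 1 or 2 class II UMIs in all. Cells with at least 2 of the 4 genes made up 15.9% and 18.8% of the Mat KO libraries, against 12.5% and 18.8% of the WT libraries. These shares overlapped, with a difference of 1.70 percentage points (exact two-sided permutation p = 1). The 48 barcodes that were given no cell had 721 and 769 UMIs of any gene in Mat KO, against 1293 and 1164 UMIs in WT. In them the class II genes had 1 UMI, of Cd74 in Mat KO replicate 2. With so few UMIs in all, these barcodes cannot show whether low class II counts in cells came from stray RNA.

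The spread over cells differed between the classes, but genes of lower level also had a wider spread. Thinned to equal depth in a single draw, B2m had a coefficient of variation (SD over mean) of 0.506 and 0.332 in Mat KO, against 0.338 and 0.485 in WT. Genes within 2-fold of its level had median values of 0.479 and 0.387 in Mat KO, against 0.348 and 0.354 in WT. B2m lay above that median in Mat KO replicate 1 and WT replicate 2 and below it in the other libraries. H2-Aa had coefficients of 4.37 and 4.91 in Mat KO, against 3.79 and 3.39 in WT. Genes of its level had medians of 2.41 and 2.39 in Mat KO, against 2.70 and 2.30 in WT, so H2-Aa was the more uneven in all 4 libraries. H2-Eb1 in WT replicate 2 and H2-Ab1 in WT replicate 1 went the other way, with coefficients of 2.33 and 2.48 beside medians of 3.20 and 2.81. H2-Eb1 in Mat KO replicate 1 lay at its median of 6.16. Of the class I genes of low level, Tap1 had 1.44 and 1.65 in Mat KO, against 2.13 and 1.78 in WT. Tapbp had 1.41 and 1.20 in Mat KO, against 1.57 and 1.25 in WT.

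Summed over the 5 class I genes, a cell at equal depth held a median of 54 and 61 UMIs in Mat KO, against 67 and 60 UMIs in WT. The lowest cell held 15 and 19 class I UMIs in Mat KO, against 26 and 25 in WT. The class II sum had a median of 0 in every library, with highest cells of 24 and 39 UMIs in Mat KO, against 11 and 35 UMIs in WT.

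**Figure D3:**
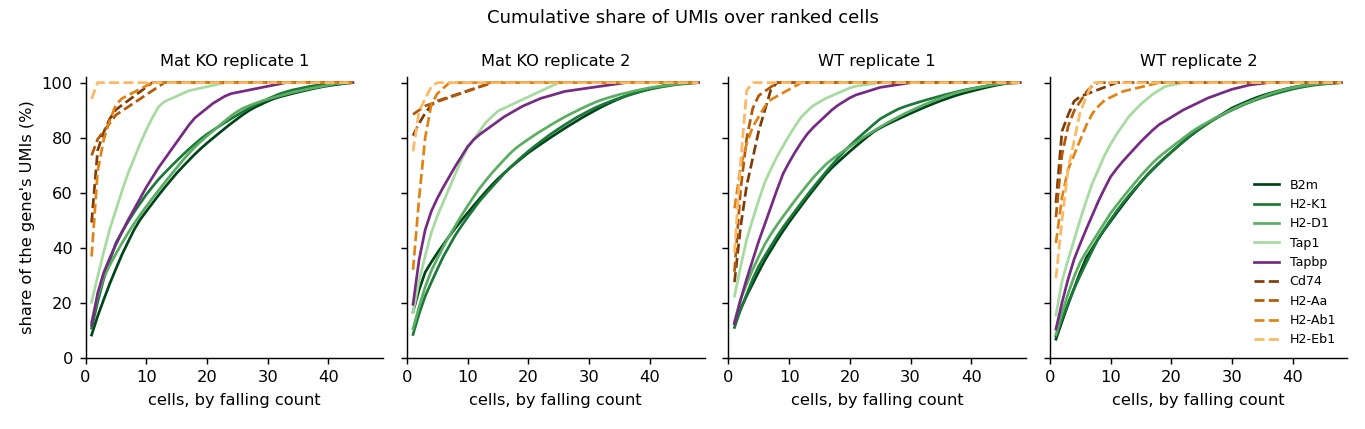
Cumulative share of each gene's UMIs (%) over the cells of each library, ranked by falling count, with class I as solid and class II as dashed lines. B2m needed 9 and 9 cells in Mat KO, against 11 and 11 in WT, to reach 50% of its UMIs, and H2-Aa needed 1 and 1 cells in Mat KO, against 2 and 1 in WT.

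A single cell carried much of the class II signal of each library. The leading cell held 123 of 233 class II UMIs (52.8%) in Mat KO replicate 1 and 288 of 383 (75.2%) in Mat KO replicate 2, against 88 of 219 (40.2%) in WT replicate 1 and 201 of 432 (46.5%) in WT replicate 2. These cells held 2.98% and 4.03% of all UMIs of their Mat KO libraries, against 2.33% and 1.62% of their WT libraries. All 4 genes were present in each of the leading cells.

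The leading cells differed in what else they expressed. In Mat KO replicate 1 the cell met the rule for T and NK cells, with 5 of 9 markers, although Cd3e and Cd3d had no UMI in that library, and had no UMI of Ciita. In Mat KO replicate 2 it was lineage-low, with 109 UMIs of Cd74, 115 of H2-Aa, 13 of H2-Ab1, 51 of H2-Eb1 and all 50 Ciita UMIs of its library. In WT replicate 1 it was lineage-low with stem cell transcripts, namely 57 UMIs of Hlf and 18 of Procr, and held 16 of the 18 Ciita UMIs and 51 UMIs of H2-DMa, which helps load class II. In WT replicate 2 it met the rules for plasma cells, whose markers took 10.1% of its UMIs, and for granulocytes or monocytes, with no Ciita. The same barcodes in the other libraries held 0 to 16 class II UMIs.

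**Figure D4:**
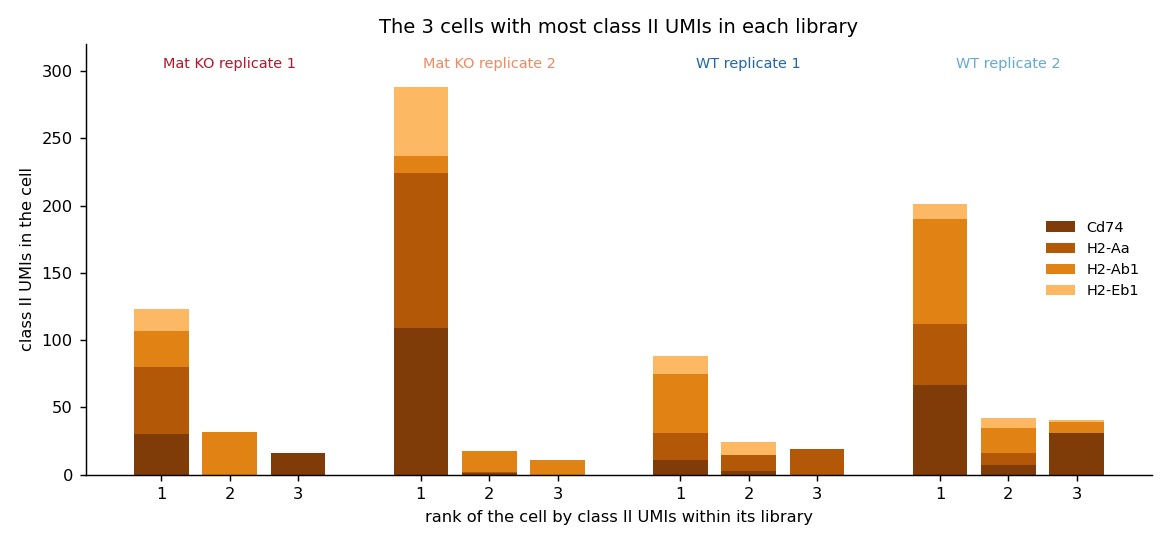
UMIs of the 4 class II genes in the 3 cells with most of them in each library, stacked by gene. The first cell of each library holds 123 and 288 UMIs in Mat KO and 88 and 201 UMIs in WT, while the second holds at most 42.

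In the B-lymphoid marker cells H2-Ab1 took most of the class II UMIs. In these 14 cells H2-Ab1 had 123 UMIs in 10 cells, while Cd74 had 2 UMIs in 2 cells, H2-Aa had 5 UMIs in 2 cells, and H2-Eb1 and Ciita had none. The same cells expressed early B-cell genes in nearly every cell, such as Vpreb3 (14 cells, 1937 UMIs) and Igll1 (13 cells, 2176 UMIs), both of which are in the list that chose the cells. H2-Ob, a chain of the H2-O regulator of class II loading, had 116 UMIs in 8 of them. Per library, H2-Ab1 reached 145 and 109 CPM in the Mat KO B-lymphoid cells, against 58.6 and 139 CPM in the WT ones.

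Among class I genes, H2-K1 was lower in cells with a lineage marker programme than in lineage-low cells of the same library. It had 850 and 1192 CPM in the marker cells of the Mat KO libraries, against 1451 and 1466 CPM in their lineage-low cells. In the WT libraries it had 577 and 857 CPM in marker cells, against 1591 and 1462 CPM in lineage-low cells. The marker cells were lower in 4 of 4 libraries, by a mean log2 ratio of -0.83 (SD 0.48). The exact paired permutation test gave p = 0.125, the smallest that 4 libraries allow. B2m was lower in 3 of 4 libraries (mean log2 ratio -0.43, SD 0.58, exact paired permutation p = 0.25), and H2-D1 in 2 of 4 (-0.14, SD 0.50, exact paired permutation p = 0.875). Tap1 was also lower in 2 of 4 (-0.03, SD 0.27, exact paired permutation p = 0.75). The same held for Tapbp (0.07, SD 0.70, exact paired permutation p = 0.875).

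Over the thinned cells, the class I sum moved with the sum of the stem cell markers, with a Pearson correlation of 0.73 and 0.18 in the Mat KO libraries and 0.60 and 0.59 in the WT libraries. For the class II sum the same correlation was -0.16 and -0.43 in the Mat KO libraries and 0.03 and 0.13 in the WT libraries. Between the class I and class II sums it was 0.17 and 0.05 in the Mat KO libraries and 0.11 and 0.30 in the WT libraries. The 6 pairs of class II genes had mean correlations over the libraries of 0.45 to 0.70, and the 10 pairs of class I genes of -0.01 to 0.45, the highest being B2m with H2-K1. In WT replicate 1 the class II pairs reached down to 0.03, for Cd74 with H2-Aa. The pair of highest mean, H2-Aa and H2-Eb1, correlated at 0.82 and 0.65 in the Mat KO libraries and 0.73 and 0.59 in the WT libraries. Only 9 cells of the 4 libraries held both genes before thinning. After thinning, the leading class II cell was the only one with both in each Mat KO library. It held 11 H2-Aa UMIs and 1 H2-Eb1 UMI in replicate 1, and 13 and 6 in replicate 2. The Mat KO correlations of this pair thus rest on a single cell per library. These are descriptions over 169 cells that share libraries.

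Of 4748 genes detected in at least 5 thinned cells of each library, those most like the class I sum, by mean correlation over the 4 libraries, were Malat1 (0.50), Ifitm1 (0.47), Fos (0.46), Ppp1r15a (0.42), Lmo2 (0.40), Hlf (0.40), Tmem176b (0.39) and Tmem176a (0.37). Malat1 is a nuclear noncoding RNA, Ifitm1 an interferon-induced membrane protein, and Hlf a stem cell transcription factor. Those most like the class II sum were Abcb1b (0.37), Serp1 (0.35), Pbxip1 (0.34), Mzb1 (0.33), Ctss (0.33), Lmo4 (0.31), Pnpla7 (0.31) and Selplg (0.30). Mzb1 is a marker of plasma cells, and its correlation was 0.34 and 0.03 in the Mat KO libraries and 0.16 and 0.79 in the WT libraries.

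Between the genotypes none of the 9 genes passed edgeR's quasi-likelihood test, in which 0.0750% of the 10663 genes tested passed. The test compared UMIs summed per library, with Benjamini-Hochberg adjustment over all genes at 0.05. The labels do not say whether libraries came from separate animals, so its p-values measure the spread between libraries. H2-Aa had an unadjusted p under 0.05, which 7.82% of all genes had, and by DESeq2 none of the 9 passed either. The libraries did not overlap for B2m, lower in Mat KO as were 21.3% of all genes, and for Tapbp and H2-Aa, higher as were 17.8% of all genes. In summed RNA, fewer cells with a gene and less RNA per cell cannot be told apart.

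B2m was the most precise of these, with a log2 fold change (Mat KO minus WT) of -0.21 (SE 0.13, adjusted p = 0.757 from edgeR). At equal depth a cell was expected to hold a mean of 36.3 and 35.0 B2m UMIs in the Mat KO libraries, against 43.5 and 45.0 in the WT libraries, and 21.6% of genes were lower without overlap on this measure. H2-D1 was also lower on it, at 8.22 and 7.98 UMIs in Mat KO, against 8.70 and 8.39 in WT, and Tapbp was higher, at 1.35 and 1.65 UMIs in Mat KO, against 0.864 and 1.04 in WT, as were 17.8% of genes. In lineage-low cells B2m had 4698 and 3743 CPM in the Mat KO libraries, against 5125 and 4933 CPM in the WT libraries, again without overlap, as were 21.6% of the genes tested in those cells. Tapbp and H2-Aa overlapped in lineage-low cells. Tapbp had 86.5 and 161 CPM there in Mat KO, against 99.1 and 118 CPM in WT, and H2-Aa had 4.32 CPM and 99.2 CPM in the Mat KO libraries, against 25.0 and 16.4 CPM in WT. Cd74 did not overlap there, at 21.6 and 97.6 CPM in Mat KO, against 13.3 and 8.18 CPM in WT, as were 15.7% of genes on the higher side. H2-Ab1 did not overlap on the lower side, at 19.5 and 13.3 CPM in Mat KO, against 19.9 and 26.5 CPM in WT. Single lineage-low cells held 16 Cd74 UMIs in Mat KO replicate 1 and 109 in Mat KO replicate 2. Another held 44 H2-Ab1 UMIs in WT replicate 1. Both separations thus leaned on single cells. H2-K1 differed by -0.07 (SE 0.20) and H2-D1 by 0.02 (SE 0.20), both with adjusted p-values above 0.96 by edgeR. Tapbp had a log2 fold change of 0.56 (SE 0.35, adjusted p = 0.745 from edgeR), and Tap1 of -0.004 (SE 0.43, adjusted p = 0.999 from edgeR).

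The class II estimates were large and imprecise. H2-Aa had a log2 fold change of 1.25 (SE 0.57, adjusted p = 0.633 from edgeR), Cd74 of 1.18 (SE 0.66, adjusted p = 0.719) and H2-Eb1 of 1.12 (SE 0.88, adjusted p = 0.810), while H2-Ab1 had -0.14 (SE 0.58, adjusted p = 0.981). With the leading cell of each gene left out in each library, H2-Aa had -0.48, H2-Eb1 -0.43, Cd74 0.42 and H2-Ab1 0.22. Without Mat KO replicate 2, which held the cell with 288 class II UMIs, Cd74 had 0.39, H2-Aa 0.61 and H2-Eb1 -0.31. Without Mat KO replicate 1, the library rich in granulocyte or monocyte markers, Cd74 had 1.67, H2-Aa 1.68 and H2-Eb1 1.82. Cd74 had 0.59 without WT replicate 1, 2.14 without WT replicate 2 and 2.54 in lineage-low cells. None of the 9 genes passed in any of these fits.

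**Figure D5:**
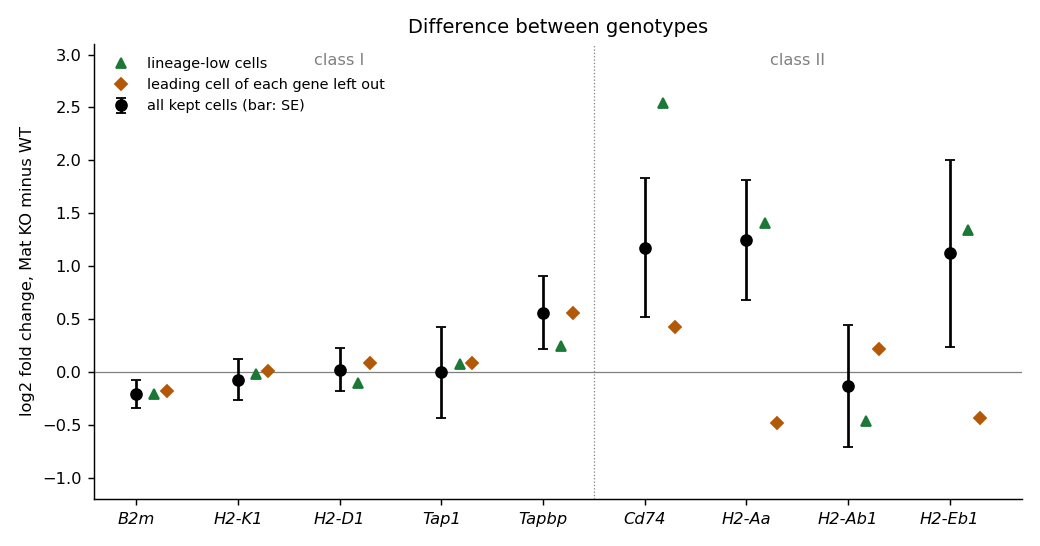
Log2 fold change (Mat KO minus WT) of each gene from the summed UMIs, with bars of 1 SE for all kept cells, beside the value in lineage-low cells and with each library's leading cell of that gene left out. H2-Aa lies at 1.25 in all kept cells and at -0.48 without the leading cells, and B2m lies at -0.21 and -0.18.

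The wider antigen presentation pathway showed no gene that passed either. Of 62 listed genes 60 were in the counts and 47 were tested, of which edgeR called 0, with 3 at an unadjusted p under 0.05 and 1 called by DESeq2 (Ctss), which called 1.13% of all genes. Their median log2 fold change was 0.10, against -0.01 over all genes tested, with 28 above and 19 below zero. Medians were 0.12 for 9 other class I heavy chains and class I-like genes, 0.01 for 14 genes of class I loading and trimming, 1.02 for 9 genes of class II loading and 0.28 for 15 transcription regulators.

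The 3 genes at an unadjusted p under 0.05 were Ctss, Ifi30 and Irf8, all higher in Mat KO, and 3 of 47 genes is no larger a share than the 7.82% of all genes at that level. Ctss, the protease cathepsin S that trims the invariant chain, had 103 and 87.1 CPM in the Mat KO libraries, against 21.0 and 20.9 CPM in the WT libraries. Its log2 fold change was 2.21 (SE 0.44, adjusted p = 0.128 in edgeR and 0.00167 in DESeq2). A single cell held 145 of its 196 UMIs in Mat KO replicate 1, and without the leading cells the value was 1.62 (adjusted p = 0.557 from edgeR). At equal depth it was 1.14. In lineage-low cells it had 11.9 and 21.1 CPM in the Mat KO libraries, against 11.3 and 17.9 CPM in the WT libraries, and in marker cells 190 and 260 CPM in the Mat KO libraries, against 61.3 and 32.1 CPM in the WT libraries. In a fit of lineage-low cells alone the log2 fold change was 0.23 (adjusted p = 0.987 from edgeR), and at the lower and higher limits for a marker cell it was 0.94 and 1.26.

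Ifi30, a lysosomal thiol reductase of antigen processing, had 157 and 44.7 CPM in the Mat KO libraries, against 29.2 and 40.0 CPM in the WT libraries (log2 fold change 1.57, SE 0.56, adjusted p = 0.551 from edgeR). A single cell held 88.0% of its UMIs in Mat KO replicate 1. Irf8, a transcription factor of monocyte and dendritic cell development, had 47.9 and 60.5 CPM in the Mat KO libraries, against 17.9 and 27.05 CPM in the WT libraries (1.30, SE 0.54, adjusted p = 0.597 from edgeR). Of the master regulators, Nlrc5 had 43.7 and 33.9 CPM in the Mat KO libraries, against 18.2 and 18.4 CPM in the WT libraries (1.11, SE 0.61, adjusted p = 0.716 from edgeR). Of its 83 UMIs in Mat KO replicate 1, 73 came from 1 cell. Ciita had 0 and 50 UMIs in Mat KO, against 18 and 1 UMIs in WT, found in 0 and 1 cells in Mat KO and in 2 and 1 cells in WT (2.28, SE 1.82, adjusted p = 0.814 from edgeR).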

How the data were processed

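Per the labels' protocols, sorted single cells were picked by mouth pipette and made into libraries with a modified STRT-seq method. The authors deposited a table of raw UMI counts, genes by cell barcodes, for each of 4 libraries. The mm10 build, HTSeq and TopHat2 2.0.12 are listed in the submitters' processing notes. A barcode with 1000 or more detected genes was taken as a cell, and 95 spike-in or marker rows were left out. No doublet caller was run, since cells were picked singly. Counts were summed per library and tested with edgeR 4.0.16 in R 4.3.3 (quasi-likelihood, TMM factors, filterByExpr, genotype as the only term), with DESeq2 1.42.0 as an alternative. The edgeR step was tested on simulated data.

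A cell was a marker cell where at least 3 genes of a list had UMIs and the list took at least 0.5% of its UMIs. Lists for B-lymphoid, granulocyte or monocyte, dendritic, plasma, T and NK, and erythroid cells were used. For equal depth, cells were thinned to 8877 UMIs (10th percentile of the cells), which kept 169 cells and left out 19. A single random draw was planned. Because that draw moved the shares of rare genes, the shares and means given at equal depth are instead the values expected over draws (for cells with at least 2 genes, the mean of 200 draws), a change made after the single draw was seen. Under the single draw Tap1 shares did not overlap (42.1% and 41.5% in Mat KO, against 23.9% and 27.3% in WT), nor did those of H2-Ab1 (13.2% and 9.76% in Mat KO, against 17.4% and 18.2% in WT), while those of Tapbp and H2-Aa did. Coefficients of variation, cell sums, correlations and the thinned edgeR fit use the single draw.

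The 9 genes, the pathway and marker lists and the tests were chosen with earlier results of these data known. Pathway genes were named where they passed or had an unadjusted p under 0.05, beside Nlrc5 and Ciita, and the genes of like pattern were the 8 of highest mean correlation for each class. Other genes named in single cells, such as Vpreb3 and H2-DMa, were chosen after their values were seen. Replicate numbers did not pair the libraries: deviations of same-numbered libraries from their group means correlated at -0.017. The alternatives were RLE factors, DESeq2, other filters, a replicate block, each library left out, cells with at least 2000 genes, equal depth, lineage-low cells at 3 limits, and the leading cells left out.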

Additional observations from a re-analysis of the deposited data

Results flagged for a closer look

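Barcodes 49 to 96 held no cells, yet B2m had 8 UMIs there in Mat KO replicate 2 and 9 UMIs in WT replicate 1, above the 3 counts that a count of 0 allows. Mat KO replicate 1 and WT replicate 2 had 1 UMI each. These barcodes were used in no comparison.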

How the results depend on the processing

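None of the 9 genes passed in any of the 15 alternatives, and the lowest adjusted p was 0.244 in edgeR (Cd74, lineage-low cells at the higher limit of 1.0%). Of 133 log2 fold changes under the alternatives, 107 kept their sign and 26 turned. B2m and Cd74 kept theirs in all 15. H2-K1 turned without Mat KO replicate 1 (0.0675), at equal depth (0.0090), without leading cells (0.0047) and at the higher limit (0.0452). H2-D1 turned without Mat KO replicate 2 (-0.0031), without WT replicate 2 (-0.0213), in lineage-low cells (-0.10) and at the lower limit of 0.2% (-0.16). Tap1, near zero, turned with RLE factors (0.0108), DESeq2 (0.0107), the stricter filter (0.0200), without Mat KO replicate 2 (0.38), without WT replicate 1 (0.28), at equal depth (0.65), in lineage-low cells (0.0708), without leading cells (0.0821), and at the lower (0.11) and higher limits (0.0529). Tapbp turned at the lower limit (-0.11). H2-Aa turned without leading cells (-0.48). H2-Ab1 turned without Mat KO replicate 2 (0.15), without WT replicate 2 (0.56), without leading cells (0.22) and at the higher limit (0.72). H2-Eb1 turned without Mat KO replicate 2 (-0.31) and without leading cells (-0.43), and had no value at equal depth or with the stricter filter. With 1 library left out, values ranged from -0.25 to 0.0675 for H2-K1, -0.0213 to 0.0496 for H2-D1, -0.55 to 0.38 for Tap1, -0.62 to 0.56 for H2-Ab1, -0.31 to 1.82 for H2-Eb1, 0.39 to 2.14 for Cd74, 0.61 to 1.68 for H2-Aa, 0.22 to 0.82 for Tapbp and -6.07 to 5.33 for Ciita. Pathway genes that passed numbered 0 in the reported fit, 1 with DESeq2, 1 with no filter, 1 with the replicate block, and 0 to 2 with 1 library left out (2 without Mat KO replicate 2). Ctss was the gene called in each case, and Ifi30 the other (adjusted p = 0.0135 by edgeR). Ifi30 turned in lineage-low cells (-0.69) and at the lower (-1.25) and higher limits (-0.78), and Ciita without Mat KO replicate 2. The difference in cells with at least 2 class II genes, 1.70 percentage points, was -3.61 in the planned single thinning draw and -1.12 as the mean of 200 draws. It was -6.16 at 3 or more UMIs and -2.57 in lineage-low cells. For class I it was 0, against -0.0197 as the mean of draws and -1.14 at 3 or more UMIs. The replicate block called none of the 9 genes, and with it Cd74 had 1.23 and H2-Aa 1.17. The limits at 0.2% and 1.0% and the mean of draws were chosen after seeing the data. The cause of these changes was not tested. With 2 libraries a genotype, and 1267 class II UMIs in all, differences in class II were measured with little precision.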
